A study of Homo sapiens with 30 samples.

Results

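KRT13, SERPINA3 and ANKH are 3 genes that were chosen by their fall under IFN-γ in these libraries, out of 61471 genes in the table of each glioblastoma line. Their values against untreated cells are therefore given as a description, without a test. All 3 were found in both tables, and a test was run where the mean TPM (a length-scaled share of the transcripts in a library) of a line reached 0.5, which held for 3 of 3 in U251 and for 1 of 3, ANKH, in U87. The description as repressed genes held for all 3 in U251 and for ANKH alone in U87, where KRT13 and SERPINA3 were near 0 from the start.

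The study sequenced RNA of the human glioblastoma lines U87-MG and U251-MG, grown in DMEM with serum, to follow what long exposure to IFN-γ does to gene expression. The 5 groups of each line were Untreated (no IFN-γ), D3, D14 and D28 (IFN-γ for 3, 14 and 28 days), and D28WO (IFN-γ for 14 days, then 14 days without it), with 3 replicates each in the labels. The protocol in the labels gives IFN-γ at 1 µg/mL and their treatment field 1 µL/mL, and by the labels untreated cells were collected at day 3. The paper gives a lower dose and an earlier day for the untreated cells. By either account no untreated cells were collected alongside D14, D28 or D28WO. Where these groups are compared with Untreated, IFN-γ and time in culture cannot be told apart. In the sample titles the group called D28 here is named D28W. The lines were not authenticated, and replicates were independent culture preparations according to the paper, so the p-values below treat libraries as independent.

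Here 13 U87 libraries, with 2 at D3 and 2 at D14, and 15 U251 libraries were used. Each library sums to 1000000 TPM, which leaves its own depth of sequencing unknown, and a value of 0 has no known floor. The paper states only a minimum depth. The number of genes above 0 ran from 24223 to 28649 in U87 and from 24450 to 30246 in U251.

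KRT13 is a type I keratin of the stratified epithelia that line mouth and oesophagus, where it pairs with the type II keratin KRT4. SERPINA3, alpha-1-antichymotrypsin, is a secreted inhibitor of chymotrypsin-like proteases such as cathepsin G, an acute phase protein made under IL-6 family cytokines and STAT3, and a product of reactive astrocytes. ANKH is a membrane protein that raises extracellular pyrophosphate and so restrains mineral deposition, while IFN-γ is a cytokine of T and NK cells that acts through JAK kinases to change the transcription of many genes.

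Genes that IFN-γ is known to induce were lower in the D14 libraries than in D3 and D28, and high in the D28WO libraries. IRF1 (a transcription factor), GBP1 (a guanylate-binding GTPase) and CIITA (the activator of class II antigen presentation genes) served as the check. In U87, GBP1 was 36.9, 39.6 and 31.3 TPM in Untreated, 209 and 240 TPM in D3, 31.7 and 36.6 TPM in the libraries labelled D14, 253, 256 and 244 TPM in D28, and 213, 219 and 232 TPM in those labelled D28WO. The D14 libraries of U87 thus overlapped Untreated in GBP1, while the D28WO libraries, taken 14 days after withdrawal by their label, lay near D28. In U251 the mean of CIITA was 1.88 TPM in Untreated, 130 TPM in D3, 7.48 TPM in D14, 131 TPM in D28 and 102 TPM in D28WO. The U251 libraries labelled D14 lay between Untreated and D28 in IRF1, GBP1 and CIITA. For U87 the paper describes a weaker response at the D14 point and a later return as a course of the cells, and for U251 a lasting response that withdrawal lowered in part. It also reports that growth recovered after withdrawal, fully in U251 and in part in U87. According to the paper, a protein phosphorylation that rises under IFN-γ went back toward its untreated level after withdrawal in both lines. Both were measured on cultures and not on these libraries. Whether the labels or columns of D14 and D28WO were exchanged was not tested, and it would change what every value of these groups means. For the members, the comparison of D28 with D3 compares none of these libraries, though they entered its fit. The counts of lists for D28WO against D28 rest on these libraries and have no value without them.

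**Figure D1:**
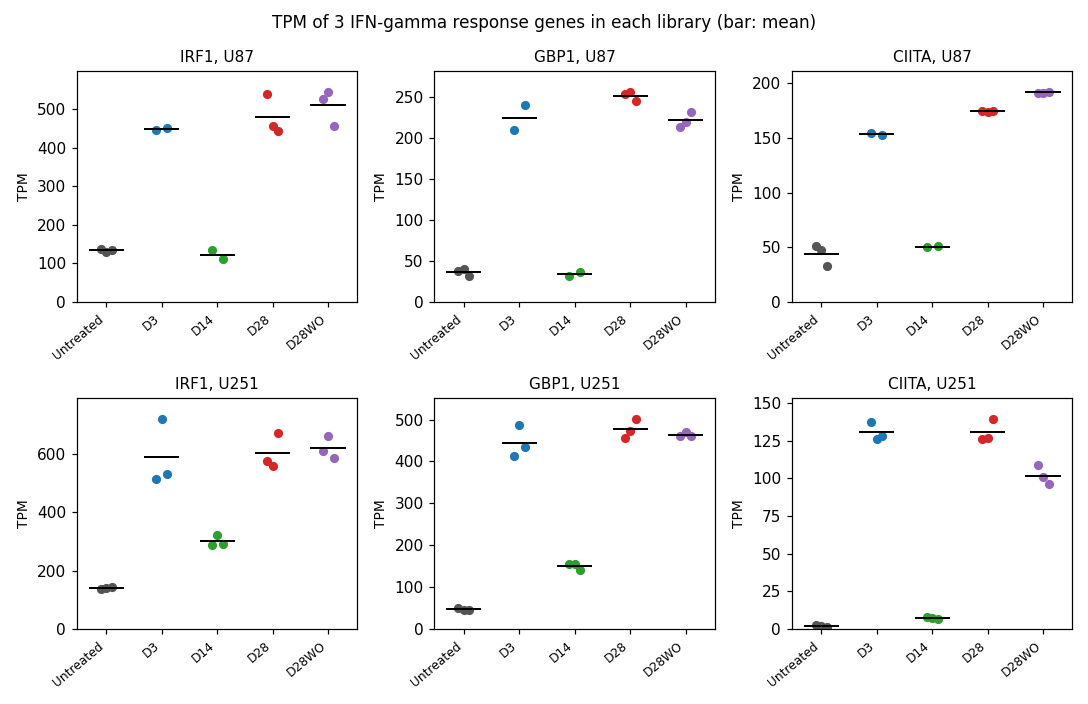
TPM of IRF1, GBP1 and CIITA in each library (points) with the group mean (bar), for U87 above and U251 below. In U87 the D14 points of GBP1, 31.7 and 36.6 TPM, lie among the Untreated points, and in both lines the D28WO points lie near D28.

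Promoters are shown because all 3 members were lower in D3 and D28 than in Untreated in U251, though ANKH differed from the others in the order of the groups. RefSeq promoters (GRCh38.p14) were present for 2 of 3 members, SERPINA3 and ANKH, and not for KRT13. The 250 bases before each RefSeq start are given on the strand of the gene, chr14:94612141-94612390 (plus strand) for SERPINA3 and chr5:14871779-14872028 (minus strand) for ANKH. Capitals mark matches to the motifs searched on both strands.
SERPINA3: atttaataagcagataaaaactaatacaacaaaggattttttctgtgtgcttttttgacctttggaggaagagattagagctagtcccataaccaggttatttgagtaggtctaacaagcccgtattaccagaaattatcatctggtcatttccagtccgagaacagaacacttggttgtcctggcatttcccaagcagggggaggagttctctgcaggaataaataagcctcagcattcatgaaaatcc
ANKH: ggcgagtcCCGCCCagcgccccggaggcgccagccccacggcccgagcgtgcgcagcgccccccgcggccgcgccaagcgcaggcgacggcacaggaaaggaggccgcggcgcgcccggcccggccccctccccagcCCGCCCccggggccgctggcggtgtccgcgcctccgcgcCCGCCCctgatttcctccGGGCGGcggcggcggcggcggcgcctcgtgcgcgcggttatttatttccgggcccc
The motifs were the gamma-activated sequence GAS (TTCNNNGAA, in 6.57% of 35116 promoters of this length), the TATA box (TATAAA, 10.7%), the CCAAT box (CCAAT, 32%) and the GC box (GGGCGG, 42.6%). The ANKH stretch held 4 GC boxes, and none of the other letters were found in either stretch. The ISRE core, another interferon response motif, was found in 3.02% of promoters and in neither stretch. Bases G and C made up 82.8% of the ANKH stretch and 40% of the SERPINA3 stretch, against a median of 58% over all promoters. A match describes letters only, and their absence says nothing about the factors.

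In U251, SERPINA3 was high without IFN-γ and low in every treated group. It lies on chromosome 14 at chr14:94612384-94624055 (plus strand, 5 exons, GENCODE 44 on GRCh38). The Untreated libraries held 123, 123 and 131 TPM and the D3 libraries 6.17, 6.93 and 7.06 TPM. The libraries labelled D14 held 39.3, 28.3 and 27.3 TPM, D28 held 5.11, 4.72 and 2.99 TPM, and those labelled D28WO held 22.0, 25.9 and 24.4 TPM. The groups were ordered Untreated, D14, D28WO, D3 and D28, and no neighbours in this order overlapped. Mean SERPINA3 was 126 ± 4.64 TPM in Untreated (SD, n = 3) and 4.27 ± 1.13 TPM in D28 (SD, n = 3), which is 3.39% of Untreated. It stood at 5.34% of Untreated in D3, 25.1% in D14 and 19.1% in D28WO. In bulk RNA, fewer expressing cells and less RNA per cell cannot be told apart.

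KRT13 in U251 fell from a moderate level to near 0. Its gene lies at chr17:41500981-41505705 (minus strand, 8 exons). Untreated libraries held 52.3, 47.6 and 44.4 TPM and D3 libraries 0, 1.01 and 0.165 TPM. In those labelled D14, KRT13 was 15.7, 8.69 and 7.40 TPM, in D28 it was 0, 0.133 and 0 TPM, and in those labelled D28WO it was 0.487, 1.02 and 1.75 TPM. Untreated lay above all other groups and D14 above the remaining 3, while D28WO overlapped D3 and D3 overlapped D28. Its mean was 48.1 TPM in Untreated and 10.6 ± 4.44 TPM in D14 (SD, n = 3), and 0.817%, 22.0% and 2.26% of Untreated remained in D3, D14 and D28WO.

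ANKH was the member with the smallest fall and the one measured in both lines. It lies at chr5:14704800-14871778 (minus strand, 12 exons), just downstream of the GC-rich stretch printed above. In U251 it was 111, 105 and 108 TPM in Untreated, 67.0, 57.8 and 54.8 TPM in D3, 104, 106 and 102 TPM in the libraries labelled D14, 74.9, 57.1 and 67.5 TPM in D28, and 60.2, 59.7 and 52.0 TPM in those labelled D28WO. Untreated and D14 overlapped in U251, both lay above the other groups, and D28, D3 and D28WO overlapped one another in order. In U87 it was 134, 126 and 137 TPM in Untreated, 84.0 and 83.9 TPM in D3, 127 and 114 TPM in D14, 68.9, 78.5 and 81.6 TPM in D28, and 93.0, 95.1 and 93.7 TPM in D28WO. The U87 order was Untreated, D14, D28WO, D3 and D28, with an overlap between Untreated and D14 alone among neighbours. At D28, ANKH stood at 57.6% of Untreated in U87 and 61.7% in U251, and in the D14 libraries at 90.9% and 96.5%.

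In U87, KRT13 and SERPINA3 gave no pattern to describe. KRT13 was above 0 in 7 of 13 libraries and reached at most 1.66 TPM, in a D28 library, with a mean of 0.249 TPM. SERPINA3 was above 0 in 4 of 13 libraries, at most 0.631 TPM, with a mean of 0.106 TPM. Every neighbouring pair of groups overlapped for both genes in U87.

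**Figure D2:**
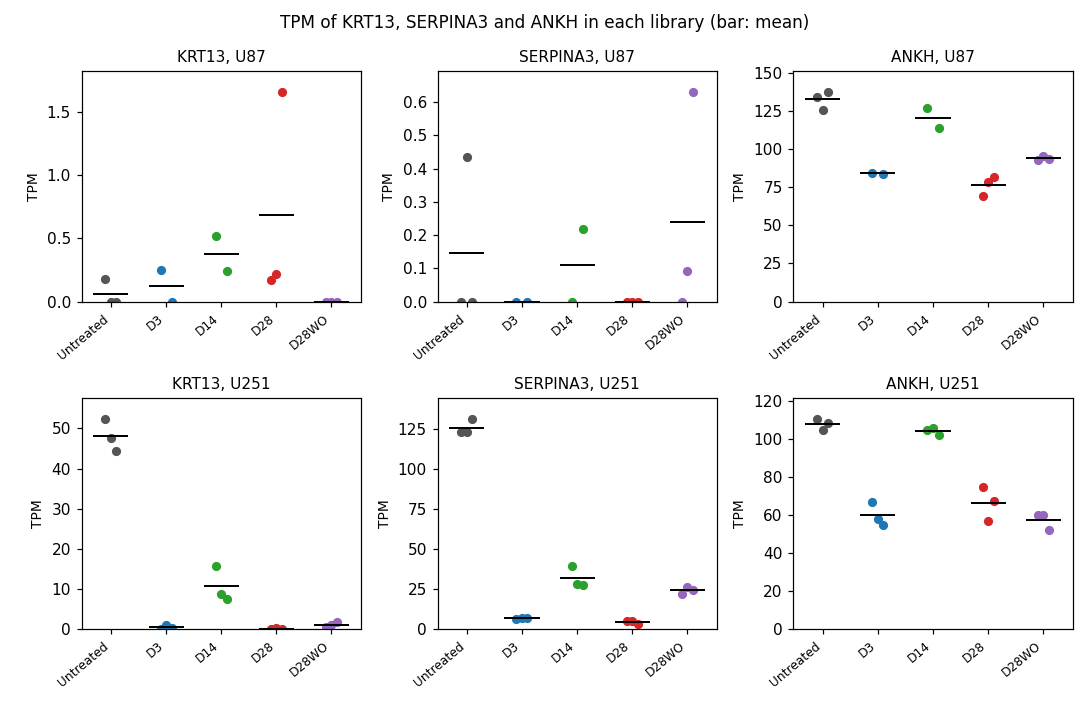
TPM of KRT13, SERPINA3 and ANKH in each library (points) with the group mean (bar), for U87 above and U251 below, each panel on its own axis from 0. SERPINA3 in U251 falls from 123 to 131 TPM in Untreated to at most 5.11 TPM in D28, and KRT13 and SERPINA3 in U87 stay under 2 TPM.

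On the log2 scale (TPM + 1), SERPINA3 in U251 differed from Untreated by -4.04, -1.98, -4.61 and -2.34 (SE 0.16) in the groups D3, D14, D28 and D28WO. KRT13 differed by -5.20, -2.15, -5.55 and -4.60 (SE 0.32). The KRT13 values depend on the pseudocount, since it was near 0 at D3 and D28, and the D28 value was -8.50 with a pseudocount of 0.1. ANKH differed by -0.84, -0.05, -0.70 and -0.90 in U251 (SE 0.10) and by -0.65, -0.14, -0.79 and -0.49 in U87 (SE 0.08 at D28). With a library left out, its D14 value ran from -0.07 to -0.03 in U251 and from -0.22 to -0.06 in U87. Over the other alternatives it reached -0.14 in U251 and -0.32 in U87. The differences from Untreated chose the members and support nothing further. They are set against a median over all genes of 0.16 in U251 and 0.19 in U87 at D28, which was -0.02 and -0.03 with quantile normalization.

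The comparisons among IFN-γ groups hold no untreated library. By the labels, they ask whether the low level lasted and whether it lifted after withdrawal. In U251, SERPINA3 and KRT13 were higher in the libraries labelled D14 than at D3 and lower again at D28, and SERPINA3 was higher in D28WO than in D28. ANKH moved the same way between D3, D14 and D28 in both lines, by less than the fold limit. A gene is called here if limma, with Benjamini-Hochberg adjustment over all genes tested, put its p below 0.05 and its log2 fold change was beyond 1 in either direction. The comparisons share groups with one another, and the treated libraries also entered the choice of the members. Where libraries are said not to overlap, this is a description only. The share of all genes with libraries separated so was not counted.

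From D3 to D14 in U251, 2 of 3 members were called higher, where 3.19% of all genes were. SERPINA3 rose by 2.06 (SE 0.16, limma with Benjamini-Hochberg adjusted p = 1e-06) and KRT13 by 3.06 (SE 0.32, limma, Benjamini-Hochberg adjusted p = 1.12e-05), each with 3 of 3 D14 libraries above all D3 libraries. With a pseudocount of 0.1 the KRT13 value was 5.04. ANKH differed by 0.79 in U251 (SE 0.10, limma, Benjamini-Hochberg adjusted p = 4.87e-05) and by 0.51 in U87 (SE 0.09, adjusted p = 0.00712), under the fold limit in both, and in U87 0.576% of all genes were called higher. With only the D3 and D14 groups in the fit, the limma adjusted p of ANKH in U87 was 0.128, the highest of a range from 0.00333 over the alternatives.

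From D14 to D28 in U251, 2 of 3 members were called lower, against 1.6% of all genes. SERPINA3 fell by 2.64 (SE 0.16, limma, Benjamini-Hochberg adjusted p = 1.06e-07) and KRT13 by 3.41 (SE 0.32, limma, Benjamini-Hochberg adjusted p = 4.75e-06), with no overlap of libraries. With a pseudocount of 0.1 the KRT13 value was -6.26. ANKH differed by -0.65 in U251 (SE 0.10, limma, Benjamini-Hochberg adjusted p = 2.94e-04) and by -0.65 in U87 (SE 0.08, adjusted p = 6.74e-04, from 3.09e-04 to 0.0797 over the alternatives), again short of the fold limit, and 0.332% of all U87 genes were called lower.

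Comparing D28WO with D28 addresses withdrawal. In U251, 1 of 3 members was called higher, against 1.12% of all genes, and no member lower, against 8.14%, while 2 of 3 had an unadjusted limma p under 0.05. SERPINA3 rose by 2.27 (SE 0.16, 95% confidence interval 1.92 to 2.62, limma, Benjamini-Hochberg adjusted p = 4.28e-07), a 5.65-fold ratio of means. KRT13 differed by 0.96 (SE 0.32, 95% confidence interval 0.28 to 1.64, limma, Benjamini-Hochberg adjusted p = 0.036), short of the fold limit. That value was 3.01 with a pseudocount of 0.1, 1.19 with quantile normalization and 1.18 without D28WO replicate 1, each past both limits, and 0.73 at the lowest with a library left out, and its limma adjusted p ran from 0.00707 to 0.143 over the alternatives. ANKH differed by -0.21 in U251 (95% confidence interval -0.41 to 0.00, limma, Benjamini-Hochberg adjusted p = 0.133, from 0.0276 to 0.423 over the alternatives) and by 0.30 in U87 (95% confidence interval 0.14 to 0.46, adjusted p = 0.017, from 0.0104 to 0.132 over the alternatives). In U87, 3.11% of all genes were called higher and 2.42% lower.

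D28 against D3, in which no D14 or D28WO library is compared, was added after seeing the data. The fit of 5 groups and its filter still held those libraries. No member was called in U251, where 0.431% of all genes were called lower and 1 of 3 members had an unadjusted limma p under 0.05. SERPINA3 differed by -0.57 (SE 0.16, 95% confidence interval -0.92 to -0.22, limma, Benjamini-Hochberg adjusted p = 0.0321). Its adjusted p was 0.0588 in a limma fit without the D14 and D28WO groups, within a range of 0.00528 to 0.18 over the alternatives. KRT13 differed by -0.35 (95% confidence interval -1.03 to 0.33, limma, Benjamini-Hochberg adjusted p = 0.511), but it was near 0 in both groups and passed the filter through Untreated and D14, so this test could show little. That value ran from -0.55 to -0.05 with a library left out and reached -1.22 over the other alternatives. ANKH differed by 0.15 (95% confidence interval -0.06 to 0.35, adjusted p = 0.354). In U87, ANKH differed by -0.14 (95% confidence interval -0.32 to 0.04, limma, Benjamini-Hochberg adjusted p = 0.698), and 0.0698% of all genes were called lower.

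D28WO against D14, the start of withdrawal by the labels, was also chosen after seeing the data. KRT13 fell by 2.45 in U251 (SE 0.32, limma, Benjamini-Hochberg adjusted p = 6.31e-05), the 1 of 3 members called lower, against 5.38% of all genes. SERPINA3 differed by -0.36 (SE 0.16, limma, Benjamini-Hochberg adjusted p = 0.122, from 0.0559 to 0.42 over the alternatives) and ANKH by -0.85 (SE 0.10, adjusted p = 2.14e-05). With a library left out, the SERPINA3 value ran from -0.46 to -0.20. In U87, ANKH differed by -0.35 (SE 0.08, limma, Benjamini-Hochberg adjusted p = 0.00938, from 0.00411 to 0.104 over the alternatives), where 3.39% of all genes were called lower.

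**Figure D3:**
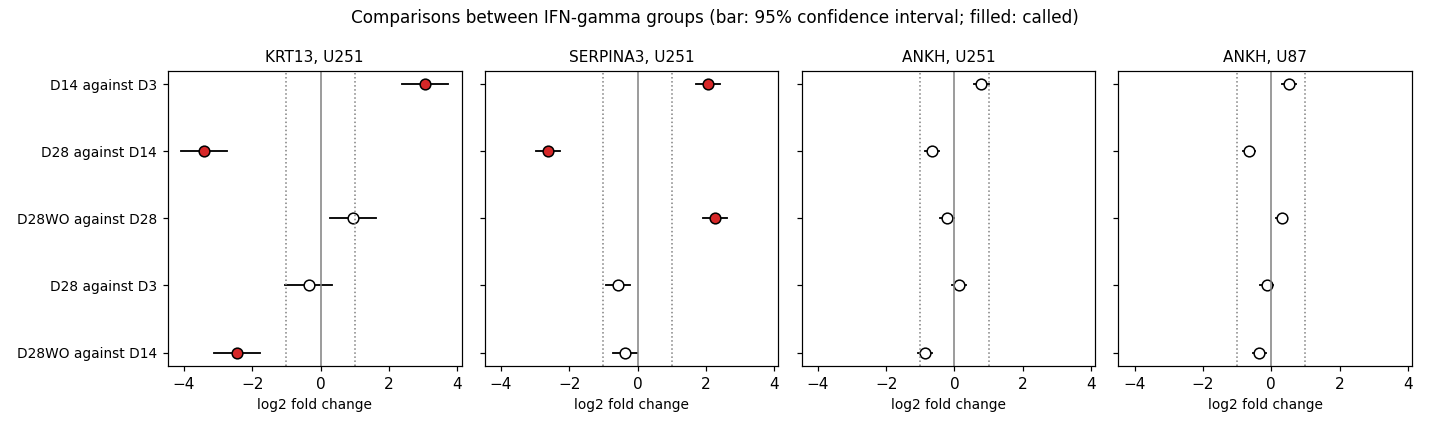
Log2 fold change (x axis) with its 95% confidence interval for 5 comparisons among the IFN-γ groups, for the 3 members in U251 and ANKH in U87. Filled points passed both limits and the dotted lines mark a log2 fold change of 1 in either direction. SERPINA3 and KRT13 rise from D3 to D14 by 2.06 and 3.06 and fall to D28. The ANKH points stay within the dotted lines, while its U251 interval for D28WO against D14, -1.06 to -0.64, crosses one.

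KRT13 sits among other type I keratins, and those measured beside it also fell in U251. Of its 6 nearest protein-coding genes, 3 on each side, 3 were tested in U251 and all 3 were called lower at D28 than in Untreated, against 3.35% of all genes. These 3 are also among the 4 keratins counted lower below. The hair keratin KRT32 went from 7.74 ± 1.04 TPM to 0 (SD, n = 3) and was 0 in D3 and D28WO, so that its Untreated level brought it past the filter on the mean. KRT19, a keratin of simple epithelia, went from 4.29 to 0.482 TPM. KRT15, a keratin of basal epithelial cells 8.04 kb from KRT13, was 165 TPM in Untreated, 19.2 in D3, 102 in D14, 78.8 in D28 and 8.75 in D28WO. KRT15 thus differed from KRT13 in its order, with its lowest group mean in D28WO. In U87 none of the 4 tested neighbours of KRT13 was called, but KRT15 went from 61.9 to 33.0 TPM there (log2 fold change -0.90, limma, Benjamini-Hochberg adjusted p = 0.00585), close to its U251 value of -1.06 (adjusted p = 0.00553). How reads shared by related keratins were assigned is not given.

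Beside SERPINA3, SERPINA5 and an overlapping gene also fell in U251. SERPINA5, the protein C inhibitor, had 18.0 TPM in Untreated and 0.369 TPM in D28. ENSG00000273259, a protein-coding gene annotated across SERPINA3 on the same strand, had 3.89 TPM in Untreated and 0.147 TPM in D28. It passed the filter on the mean through its Untreated level alone, and how reads shared by it and SERPINA3 were assigned is not given. These were the 2 of 5 tested neighbours of SERPINA3 called lower in U251, against 3.35% of all genes, the rest being GSC, DICER1 and CLMN. In U87 1 of 2 tested, DICER1, was called higher, against 6.77% of all genes. For ANKH, 5 neighbours were tested in each line and none was called at D28, among them OTULIN, a deubiquitinase gene 4.95 kb away, at 39.3 TPM in Untreated and 45.5 TPM in D28 of U251.

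**Figure D4:**
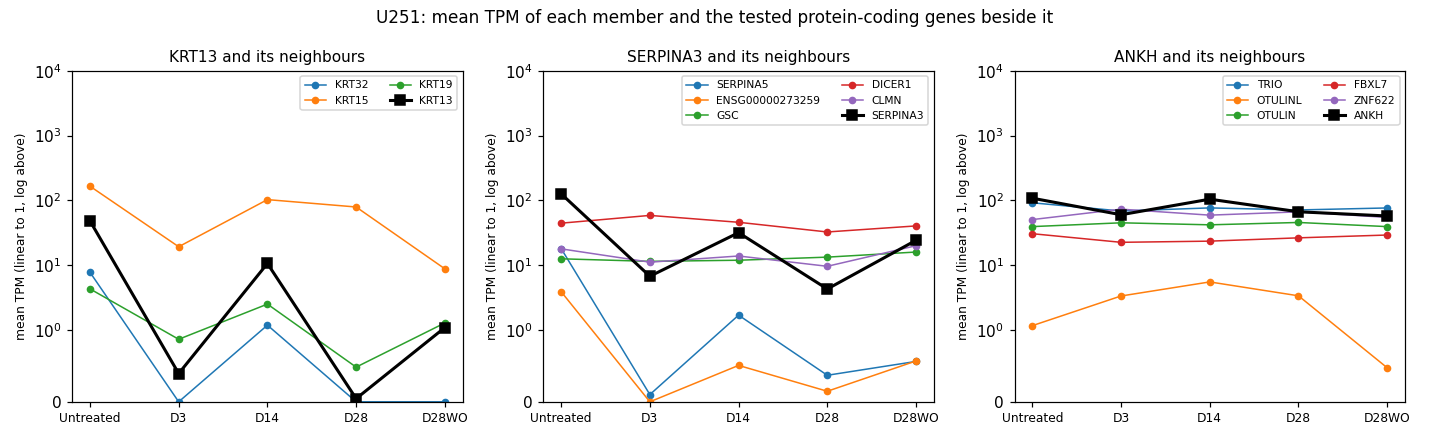
Mean TPM (linear to 1, logarithmic above) of each member (black squares) and its tested protein-coding neighbours (circles) over the 5 groups of U251. KRT32 and SERPINA5 fall with KRT13 and SERPINA3, from 7.74 to 0 and from 18.0 to 0.369 TPM at D28, while OTULIN beside ANKH is 39.3 TPM in Untreated and 45.5 TPM in D28.

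Lists of related genes, without the members, show how far each fall was shared at D28 against Untreated, where 11.9% of all U251 genes were called higher and 3.35% lower, and 6.77% and 0.611% of U87 genes. Keratins were called higher in 2 and lower in 4 of 16 tested in U251 (median log2 fold change -0.08), and in 2 and 1 of 21 in U87 (median 0.32). KRT34, 1 of the 2 called higher in U251, went from 0.0513 to 2.89 TPM and passed the filter on the mean through D28. The U87 count of keratins called higher was unstable, at 0 to 3 over the alternatives and within 1.5 times the count in 6 of 21. Squamous epithelial genes were called higher in 2 and lower in 8 of 17 in U251 (median -0.97), among them JUP, the junction protein plakoglobin, with 43.5 TPM in Untreated and a log2 fold change of -1.77. KLF4, a transcription factor of epithelial differentiation, rose there from 4.20 to 32.5 TPM. In U87 1 of 18 squamous genes was called in each direction (median 0.52), PPL higher and KRT18 lower. The keratin and squamous lists share genes, and KRT8, KRT15 and KRT19 in U251 and KRT18 in U87 were counted lower in both. The call of KRT18 was kept in 6 of 21 alternatives, with a limma, Benjamini-Hochberg adjusted p of 0.045 and a range of 0.00629 to 0.171 over the alternatives. KRT4, the partner of KRT13, averaged 0.622 TPM in Untreated U87 and 0.251 TPM in Untreated U251.

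Other serpins, like all genes, were called higher more often than lower in U251. Of them, 8 of 17 were called higher and 1, SERPINA5, lower in U251 (median 0.93), and 2 of 18 higher and 1 lower in U87 (median 0.01). The U251 count called higher ran from 5 to 9 over the alternatives. SERPINI2, 1 of the 8, had 0.173 TPM in Untreated and 2.01 TPM in D28, and passed the filter on the mean through D28. SERPING1, the C1 inhibitor of complement, rose from 3.83 to 247 TPM in U251 and from 6.99 to 96.5 TPM in U87. SERPINA1, alpha-1-antitrypsin, was 45.1 TPM in Untreated and 32.3 TPM in D28 of U251 (log2 fold change -0.48, limma, Benjamini-Hochberg adjusted p = 0.147).

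Acute phase and IL-6 family genes are the group SERPINA3 belongs to by function. In U251 9 of 29 were called higher and 3 lower (median 0.23), beside 11.9% and 3.35% of all genes, and in U87 7 of 25 higher and none lower (median 0.38, limma), with 2 lower at an unadjusted p under 0.05. SAA1, a serum amyloid, rose from 0.403 to 24.7 TPM and C3, the central complement component, from 7.41 to 411 TPM in U251. STAT3 was 142 TPM in Untreated and 115 TPM in D28 of U251, IL6 117 and 119 TPM, OSMR, the oncostatin M receptor, 106 and 88.3 TPM, and SOCS3, a feedback inhibitor, 53.1 and 82.5 TPM, none past both limits. CEBPB, a transcription factor of the acute phase, rose from 79.1 to 163 TPM (log2 fold change 1.04, limma, Benjamini-Hochberg adjusted p = 2.03e-09). GFAP, the astrocyte filament and 1 of the 3 called lower with LIF and IL6R, went from 1258 to 243 TPM.

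Serine proteases of the chymotrypsin fold were low in U251, and 3 of 4 tested, all of the elastase kind that SERPINA1 is better known to inhibit, were called lower (median -1.57), CELA1 from 6.94 to 0.401 TPM, PRTN3 from 8.15 to 1.19 TPM and ELANE from 2.69 to 0.812 TPM. The other, the kallikrein KLK2, went from 1.12 to 3.50 TPM (log2 fold change 1.43, limma, Benjamini-Hochberg adjusted p = 0.0556) and was not called. None of 2 was called in U87, by limma or at an unadjusted p under 0.05 (median 0.05). CTSG, cathepsin G, was listed at 0 in all group means of both lines.

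Around ANKH, pyrophosphate and mineralisation genes went both ways, with 4 of 22 called higher and 4 lower in U251 (median -0.06), and 2 of 22 higher and none lower in U87 (median -0.04, limma), 8 lower at an unadjusted p under 0.05. Over the alternatives each of the U251 counts ran down to 2. ALPL, the phosphatase that breaks down pyrophosphate, rose from 2.21 to 16.4 TPM in U87 and from 0.0521 to 2.02 TPM in U251. Its D28 level in U251 brought it past the filter on the mean there, and it is 1 of the 4 called higher. ABCC6, the other gene called higher in U87, went from 4.70 to 10.9 TPM (log2 fold change 1.07, limma, Benjamini-Hochberg adjusted p = 0.00275). ENPP1, which makes pyrophosphate, was 47.0 TPM in Untreated and 29.3 TPM in D28 of U87 (log2 fold change -0.67, limma, Benjamini-Hochberg adjusted p = 3.95e-04), under the fold limit. NT5E, the ecto-nucleotidase CD73, rose from 41.1 to 181 TPM in U251, and MYORG, a glycosidase tied to brain calcification, fell from 39.5 to 5.11 TPM. The phosphate carriers SLC20A1, SLC20A2 and XPR1 were not called in either line.

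**Figure D5:**
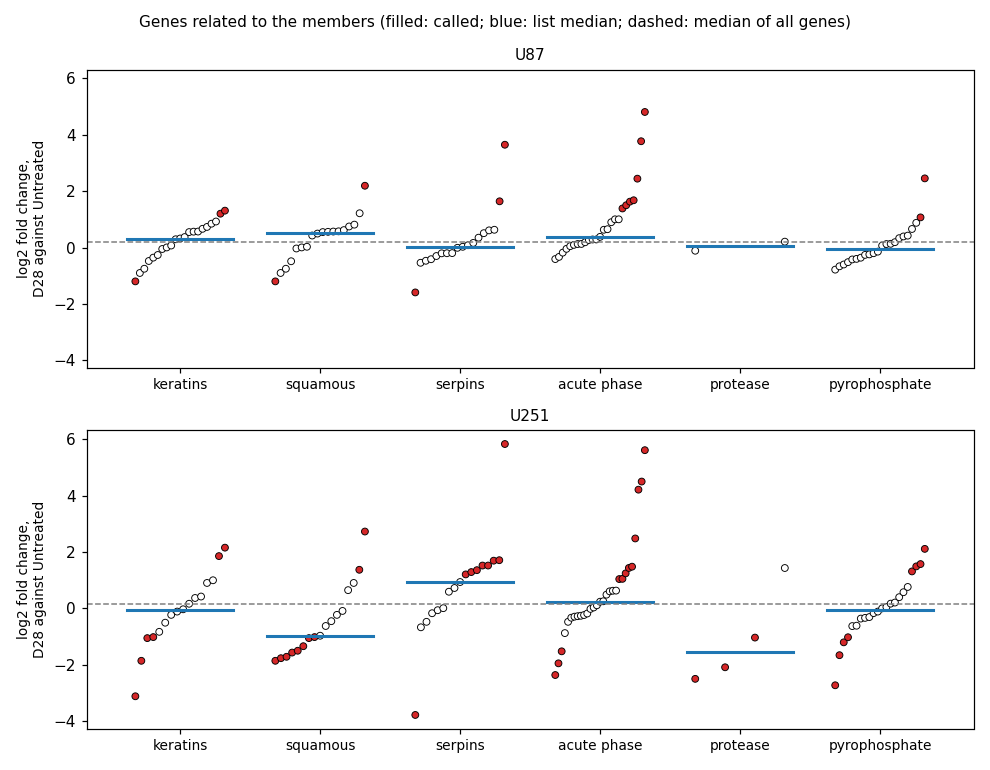
Log2 fold change at D28 against Untreated (y axis) of each tested gene in 6 lists, for U87 above and U251 below, with genes called in red, the list median in blue and the median of all genes dashed. Squamous genes lie low in U251 (median -0.97) and serpins high (median 0.93), and the members are not plotted.

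After withdrawal by the label, D28WO against D28, the lists are set beside all genes, of which 1.12% were called higher and 8.14% lower in U251, and 3.11% and 2.42% in U87. In U251 keratins were called higher in 0 and lower in 3 of 16 (limma, 4 higher at an unadjusted p under 0.05), squamous genes in 2 and 1 of 17, serpins in 0 and 5 of 17 (limma, 0 higher at an unadjusted p under 0.05), acute phase genes in 1 and 6 of 29, proteases in 2 and 0 of 4 (limma, 1 lower at an unadjusted p under 0.05) and pyrophosphate genes in 1 and 4 of 22. The count of serpins called lower ran from 2 to 6 over the alternatives. KRT34, SERPINI2 and ALPL, counted lower here, passed the filter on the mean through D28. SERPINA3 rose here while SAA1 fell from 24.7 to 1.91 TPM, and GFAP, the 1 acute phase gene called higher, rose from 243 to 573 TPM. In U87 the same lists had 3 and 0 of 21 (limma, 4 lower at an unadjusted p under 0.05), 5 and 1 of 18, 0 and 1 of 18 (limma, 3 higher at an unadjusted p under 0.05), 2 and 0 of 25 (limma, 3 lower at an unadjusted p under 0.05), 0 and 0 of 2 (limma, 1 higher at an unadjusted p under 0.05) and 1 and 2 of 22. KRT86, 1 of the 3 keratins called higher in U87, went from 0.0445 to 1.45 TPM and passed the filter on the mean through D28WO. KRT7, a keratin of simple epithelia, rose from 17.2 to 55.1 TPM in U87, and IL6 from 167 to 391 TPM.

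Genes whose pattern over the libraries was most like that of a member were named by Pearson r of log2 (TPM + 1), given as a description over libraries that share the same treatments. For SERPINA3 over 15 U251 libraries these were PTPRB (r = 0.990), SNX18, GFAP (r = 0.986), LOXL3 and CD302. PTPRB, a receptor phosphatase, followed the same order, with 118 TPM in Untreated, 26.7 in D3, 61.1 in D14, 20.7 in D28 and 54.0 in D28WO. For KRT13 they were EXTL1 (r = 0.988), ACTG1, GXYLT2, TUBA1A and CAVIN2, and for ANKH MSMO1 (r = 0.963), TMEFF2, FLRT3, BZW2 and PCDHGC3. For ANKH over 13 U87 libraries they were HCN2 (r = 0.969), TSPAN4, DPYSL3, TIMM10 and C12orf75. An r over 0.9 was reached by 418 genes for SERPINA3, 350 for KRT13 and 143 for ANKH in U251, and by 39 for ANKH in U87. A negative r beyond 0.9 in size was reached by 395, 505 and 180 genes in U251, and by 194 for ANKH in U87.

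Sums of glial and endothelial markers also fell in U251. The 9 glial or glioma markers summed to 4065 TPM in Untreated, 1759 in D3, 2982 in D14, 1843 in D28 and 2336 in D28WO. Of these, 3 of 8 tested were called lower at D28, against 3.35% of all genes. VIM was the most abundant over all libraries, GFAP the most abundant in Untreated, and OLIG2 under 0.5 TPM on average. In U87 the glial or glioma markers summed to 2111 TPM in Untreated and 1977 TPM in D28, with SOX2 under 0.5 TPM on average. There 2 of 8 tested were called higher, against 6.77% of all genes. The 9 epithelial markers summed to 119 TPM in Untreated and 81.8 TPM in D28 of U251, mainly KRT8 and KRT18, with EPCAM, KRT5 and KRT14 under 0.5 TPM on average, and to 49.6 and 62.1 TPM in U87. The 3 endothelial markers fell in sum from 31.4 to 4.45 TPM in U251, chiefly CDH5, and were 2.48 and 1.52 TPM in U87. PECAM1, 1 of the 3, went the other way in U251, from 0.659 to 2.04 TPM. Hepatocyte markers summed to 3.85 and 6.99 TPM in U251 and to 1.21 and 4.88 TPM in U87, and osteoblast or chondrocyte markers to 5.25 and 6.43 TPM and to 5.33 and 3.46 TPM. Leukocyte markers were not used here. Their part in the levels of KRT13 and SERPINA3 was not tested.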

How the data were processed

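The authors deposited TPM, 1 table for each line, from reads processed with FastQC, Trim Galore, STAR and featureCounts on GRCh38, and named edgeR for filtering and normalization and limma with voom for tests. How TPM was computed is not stated, and a supplementary sheet calls the values CPM. The 2 U87 columns with the same name were not used. Values were taken as log2(TPM + 1), and genes averaging 0.5 TPM or more in a line (22918 in U87, 23667 in U251) were fitted with limma 3.58.1 in R 4.3.3 (eBayes with trend), 5 groups of a line in 1 fit, with Benjamini-Hochberg adjustment over these genes. A gene high in 1 group could pass the filter on the mean through that group, as ALPL, KRT34 and SERPINI2 did in U251 and KRT86 did in U87. No test compared the lines, whose tables were normalized separately. The procedure was tested on simulated data.

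Members and lists were chosen with earlier results of these data known. The lists were keratins, squamous, serpins, acute phase, protease and pyrophosphate genes, and cell type markers. Named from each list were up to 4 genes per line with the largest change among those called, genes with a role tied to a member, 3 IFN-γ response genes (another was not used here), the 5 most alike genes by Pearson r, and 3 protein-coding neighbours on either side (GENCODE 44). Other genes named (KRT18, KRT34, SERPINI2, LIF, IL6R, KLK2) were chosen after their values were seen. Alternatives were quantile normalization, a pseudocount of 0.1, a replicate block, a filter at 1 TPM or none, a fit of only the 2 compared groups, median-ratio size factors, and leaving out each library. Figures were drawn with matplotlib 3.10.9 in Python 3.11.15.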

Additional observations from a re-analysis of the deposited data

Results flagged for a closer look

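Genes called in opposite directions in the 2 lines, with no overlap between the libraries compared, are given here. Only the members, the genes named by the rules above, the most alike genes and the neighbours were searched, not all genes tested. The difference between the lines was not tested. PPL, the desmosomal linker periplakin, had a log2 fold change at D28 against Untreated of 2.19 in U87 and -1.51 in U251. For D28WO against D28, PPL turned the other way, with -1.18 in U87 and 1.32 in U251. GFAP, among the genes most like SERPINA3 in U251, had 1.38 in U87 and -2.37 in U251 at D28 against Untreated, from 4.84 TPM in Untreated U87 and 1258 TPM in Untreated U251. LCN2, the iron-siderophore binding protein lipocalin 2, had 3.77 in U87 and -1.74 in U251 for D28WO against D28. The values of PPL and LCN2 for D28WO against D28 rest on D28WO libraries in which IFN-γ response genes were near D28.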

How the results depend on the processing

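Of 434 values from alternatives for the 20 tested comparisons of members, 431 kept the same call, which joins both limits, and none changed sign. The limma, Benjamini-Hochberg adjusted p alone went from under 0.05 to above it in 22 values and the other way in 1, within 7 of these comparisons. The changed calls were those of KRT13, D28WO against D28 in U251 (0.96), which passed both limits with a pseudocount of 0.1 (3.01) and quantile normalization (1.19), and ran from 0.73 to 1.18 when each library was left out. Against Untreated, 352 of 352 values kept their sign and 343 moved by less than the spread between replicates. Over all lists, genes called lower in U87 at D28 against Untreated numbered 2, with 5 under quantile normalization, 1 without the filter, 1 with only the 2 compared groups, 1 with the replicate block, 1 without the D14 and D28WO groups (chosen after seeing the data), and 1 to 3 with each library left out. Genes called lower in U87 for D28WO against D28 numbered 4, with 8 under quantile normalization and 7 under median-ratio size factors. In U251, genes called higher numbered 25 at D28 against Untreated and 6 for D28WO against D28, with 16 and 10 under quantile normalization. The cause was not tested. Of 1032 values for single lists, 926 stayed within 1.5 times the count.

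Quantile normalization moved the median of all genes at D28 against Untreated from 0.16 to -0.02 in U251 and from 0.19 to -0.03 in U87. Libraries with the same replicate number were not alike beyond their group, with correlations of deviations from -0.037 to 0.048 in U251 and from -0.027 to 0.047 in U87. Leaving out a D3 or D14 library of U87 leaves 1, which is assumed to vary like the other groups. Without the filter, KRT13 and SERPINA3 in U87 were called in 0 of 10 comparisons in limma, with 1 at an unadjusted p under 0.05 and a lowest Benjamini-Hochberg adjusted p of 0.193. TPM keeps no depth of a library, so how low a level could be detected is unknown.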
